A study of Mus musculus with 4 samples.

Results

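The 10 genes described here carry long-chain fatty acids into the cell and on into the mitochondrion, and were followed through the m6A peak lists of control and Wtap knockout mouse hearts. They are Cd36, Slc27a1 and Fabp3 for uptake and transport in the cytosol, Acsl1, Acsl3 and Acsl4 for activation, and Cpt1a, Cpt1b, Slc25a20 and Cpt2 for the carnitine shuttle. They were chosen by gene name with the peak calls of these same lists already known, so the presence or absence of their peaks is described here and supports no test. Of the 10 genes, 8 had at least 1 peak, among 12182 genes with a peak in either list. They held 14 of the 20766 control peaks and 9 of the 21179 knockout peaks.

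N6-methyladenosine (m6A) is a methyl mark on adenosines of RNA, placed on messenger RNA by a methyltransferase complex of which WTAP is a regulatory subunit. MeRIP-seq maps it by pulling down fragmented RNA with an anti-m6A antibody (the IP) and sequencing it beside the untreated RNA (the input). Both groups were whole hearts of 4-day-old mice. The control was Wtapflox/flox, a name for alleles that carry recombination sites around part or all of the gene, and RNA of 7 mice was pooled. The knockout was Wtap-CKO, with RNA of 8 mice pooled, and no source used here names the promoter that drove its recombinase. The titles of the knockout samples abbreviate the group differently from their genotype label, which was followed. Per genotype, 1 IP and 1 input library were sequenced. With no replicates, the spread between hearts is unknown, and no test between genotypes was made.

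Long-chain fatty acids are the main fuel of the adult heart, and their use rises after birth as the heart leaves the glucose-based metabolism of the fetus. CD36 and the transport protein FATP1 (Slc27a1) bring them across the plasma membrane, and FABP3, the heart fatty acid binding protein, carries them through the cytosol. Acyl-CoA synthetases (Acsl genes) trap them as acyl-CoA. CPT1 on the outer mitochondrial membrane, in a liver (Cpt1a) and a muscle (Cpt1b) form, exchanges CoA for carnitine in the step that limits the rate of oxidation. The translocase SLC25A20 moves the acylcarnitine inward and CPT2 restores the acyl-CoA for beta-oxidation.

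The values given for a peak are those of the authors' peak caller. A fold is the linear enrichment of IP over input within the peak. The log10 q is the logarithm of its p-value after correction for multiple testing, and more negative values mark stronger evidence for a peak within that list. The lists were called separately, and the depth of each library is unknown. Folds and q values from different lists are therefore set side by side, and a difference between them is not a measured change. A peak was taken to have a counterpart when at least 1 of its exonic bases lay in a same-strand peak called in the other genotype. Positions are on mouse build GRCm39, and peaks are ordered from 5' to 3' along the annotated strand. Whether a peak lay in coding sequence or a UTR was not analysed here.

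Acsl1 and Cpt2 had control peaks but no knockout peak, and Cd36 had a peak in the knockout list only. Acsl3, Cpt1a, Cpt1b, Slc25a20 and Slc27a1 had peaks in both. Acsl4 and Fabp3 had none in either list. An absent peak is not a measured absence of m6A, since a list holds only what passed the caller's threshold, and for a gene without peaks the lists give no value at all. Nor do the lists hold transcript levels. Less methylation, less RNA per cell and fewer cells of a type cannot be told apart here.

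**Figure D1:**
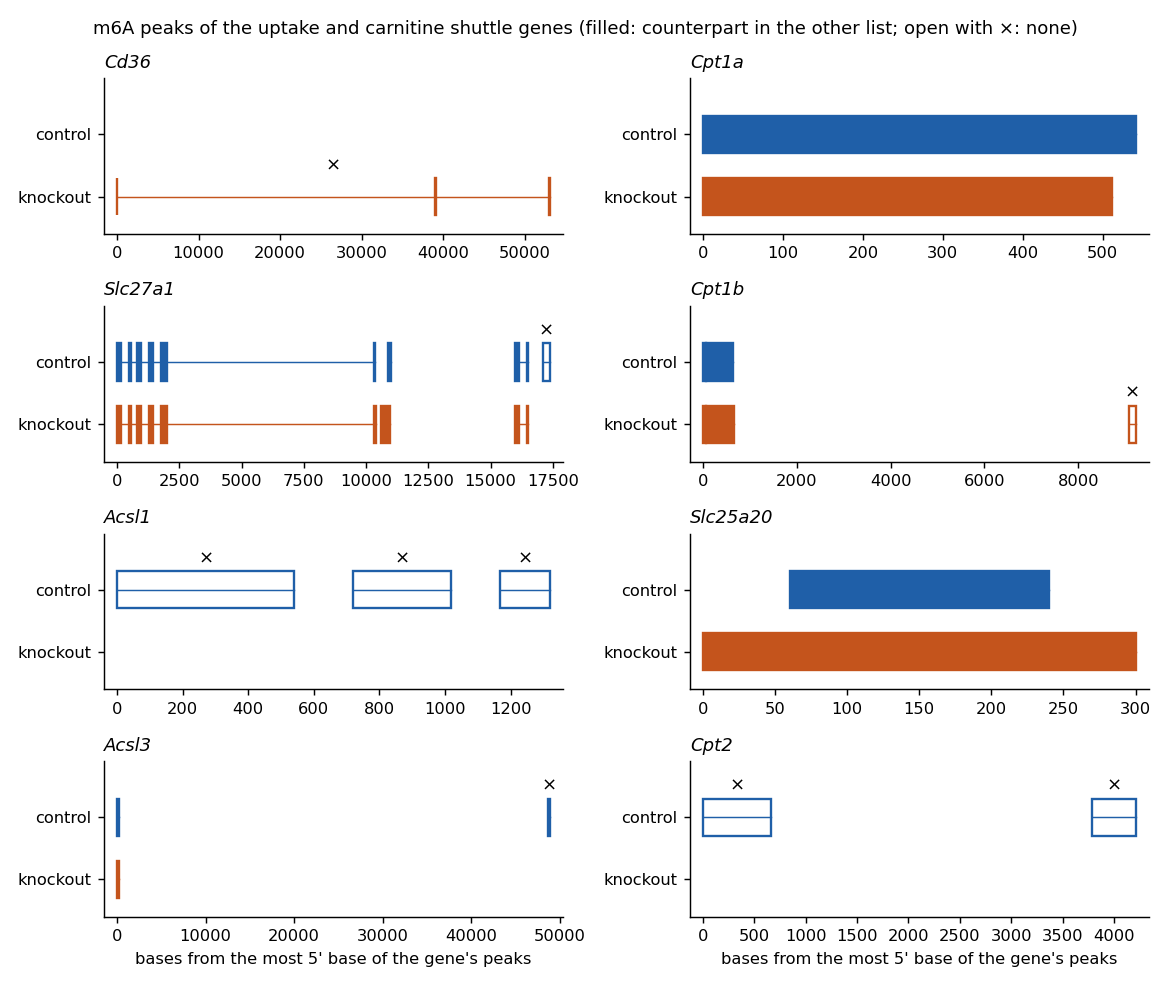
Peaks of the 8 genes with a peak, drawn by distance in bases from the most 5' base of the gene's peaks (x axis, own scale in each panel), with the control list above and the knockout list below. Boxes are exonic blocks joined by a line where a peak spans introns, filled boxes have a counterpart in the other list, and open boxes under a cross have none. Acsl1 and Cpt2 show control peaks only and Cd36 a knockout peak only.

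Among the activating enzymes, Acsl1, the main long-chain acyl-CoA synthetase of heart and adipose tissue, carried the 2 strongest peaks of the 10 genes by p. Its 3 control peaks (ENSMUSG00000018796, chromosome 8, plus strand) lay within 1319 bases, with gaps of 179 and 149 bases between them. The first, at 46987381 to 46987920, had a fold of 5.89 and a log10 p of -1050. Its log10 q was listed as minus infinity, and by p it ranked 23 among the 20766 control peaks. The second, at 46988100 to 46988399, had a fold of 3.32 (log10 q -255). The third, at 46988549 to 46988699, had a fold of 1.63 (log10 q -30.4). Strength and fold dropped together along the 3 peaks. The folds themselves were not large within the list, at percentiles 41.7, 18.5 and 1.20 of all control folds, so the first 2 stand out by their small p and not by their enrichment. No knockout peak was called anywhere in Acsl1.

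The related synthetase Acsl3, which is linked to the endoplasmic reticulum and lipid droplets, had a different pattern. Its first control peak (ENSMUSG00000032883, chromosome 1, 78635602 to 78635781, plus strand) had a fold of 6.95 (log10 q -5.74). The knockout peak began at the same base, ended at 78635811 and had a fold of 9.49 (log10 q -14.2). A second, weak control peak at 78684267 to 78684475 (fold 2.22, log10 q -2.37) lay 48485 bases further 3' and had no counterpart. Acsl4, which prefers arachidonic acid, had no peak in either list.

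Cpt2, the enzyme of the inner mitochondrial membrane, had 2 control peaks on the minus strand of chromosome 4 (ENSMUSG00000028607). The more 5' of them, at 107764730 to 107765387, was 658 bases wide with a fold of 3.97 (log10 q -68.3). The other, at 107761178 to 107761596, was 419 bases wide with a fold of 4.70 (log10 q -77). Both were strong by q and below the median of the control list by fold, which was 7.22. The knockout list held no Cpt2 peak.

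The CPT1 genes kept a peak at the same place in both lists. For Cpt1a (ENSMUSG00000024900, chromosome 19, plus strand), both peaks began at 3433755. The control peak ended at 3434295 with a fold of 4.84 (log10 q -54.7), and the knockout peak ended at 3434265 with a fold of 3.58 (log10 q -27). All 511 bases of the knockout peak were covered by the control peak. Of the overlapping pairs of these genes, it was the only one in which the control list held the higher fold. How often either list held the higher fold over all genes was not counted, so nothing is read from this direction.

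For Cpt1b (ENSMUSG00000078937, chromosome 15, minus strand), both lists held a peak of 2 exonic blocks whose 5' end was at 89310066. It reached down to 89309438 in the control (fold 10.5, log10 q -62.8) and to 89309408 in the knockout (fold 14.6, log10 q -147). The knockout list held a further Cpt1b peak near the 3' end of the called stretch, at 89300847 to 89300996, with a fold of 1.71 (log10 q -15.8) and no counterpart. Gm44502, a gene on the same strand that RefSeq also names Chkb-Cpt1b, was listed with a peak at exactly that position and with the same fold and q. It also had a peak overlapping the shared Cpt1b peak by 113 exonic bases in the control list (fold 2.63) and by 143 in the knockout list (fold 4.27). The calls do not tell these overlapping genes apart.

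Slc25a20, the carnitine/acylcarnitine translocase, had 1 peak in each list on chromosome 9 (ENSMUSG00000032602, plus strand). The control peak at 108539347 to 108539526 covered 180 bases with a fold of 2.42 (log10 q -12.5). The knockout peak at 108539287 to 108539586 covered 300 bases with a fold of 16.9 (log10 q -46.1) and contained the whole control peak. Within its own list the control fold lay at percentile 8.10 and the knockout fold at percentile 83.9, which was the widest separation among the overlapping pairs of these genes. Since the lists differ in length and perhaps in depth, these ranks do not show a change.

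**Figure D2:**
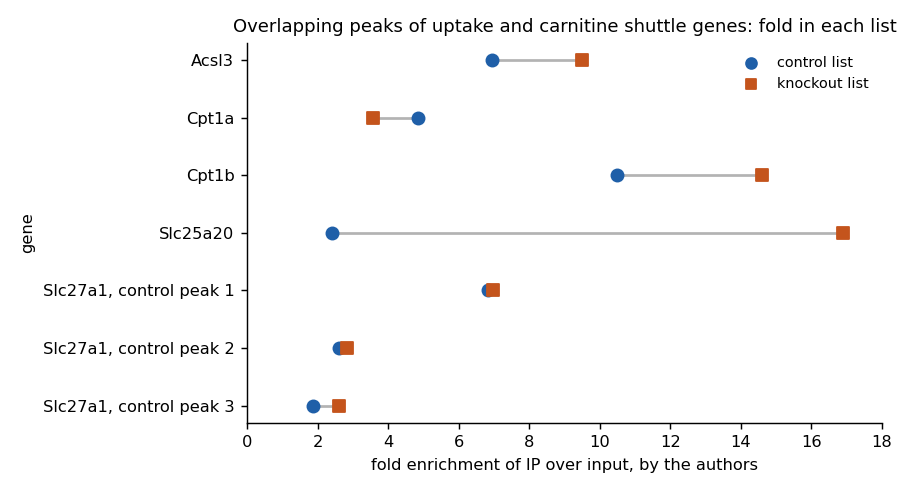
Fold enrichment of IP over input (x axis, linear) for the 7 control peaks of these genes that overlap a knockout peak, with the control fold as a circle and the knockout fold as a square on each row. The pair of Slc25a20 is the widest, at 2.42 and 16.9, and that of Cpt1a, at 4.84 and 3.58, is the only pair with the circle on the right. The direction over the pairs of all genes was not counted.

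Among the uptake genes, Slc27a1 (ENSMUSG00000031808, chromosome 8, plus strand) had the most peaks, 4 of the control and 3 of the knockout. Their exonic bases were nearly equal, at 1380 and 1379. The first peak began at 72021526 in both lists and spanned 6 exonic blocks. The first 5 blocks had the same bounds in both lists, and the sixth measured 22 bases for the control and 82 for the knockout. The folds were close, 6.82 for the control peak (log10 q -31.3) against 6.98 for the knockout peak (log10 q -19.9).

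The second pair of Slc27a1 peaks overlapped by only 61 bases, at 72032416 to 72032536 in the control (fold 2.60) and 72032117 to 72032476 in the knockout (fold 2.84). The third pair ended at 72038011 in both lists, with folds of 1.86 and 2.61. The most 3' control peak, at 72038630 to 72038899, had a fold of 3.87 (log10 q -59.1) and was the strongest of the gene by q. It had no counterpart, and the nearest knockout peak of the gene ended 618 bases before it. All overlapping peaks of Slc27a1 thus lay 5' of its strongest control peak, and that peak was the one absent from the knockout list.

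Cd36, which encodes a fatty acid translocase of muscle, adipose tissue, endothelium and macrophages, had a single knockout peak on chromosome 5 (ENSMUSG00000002944, 18040673 to 18093739, minus strand). It consisted of 3 exonic blocks of 31, 136 and 43 bases, from 5' to 3', spread over 53067 bases. The fold was 3.09 and the log10 q was -10.9, close to the bound of 1e-10 on q below which a peak is called strong here. The control list had no Cd36 peak. Fabp3, one of the abundant cytosolic proteins of heart muscle, had no peak in either list.

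**Figure D3:**
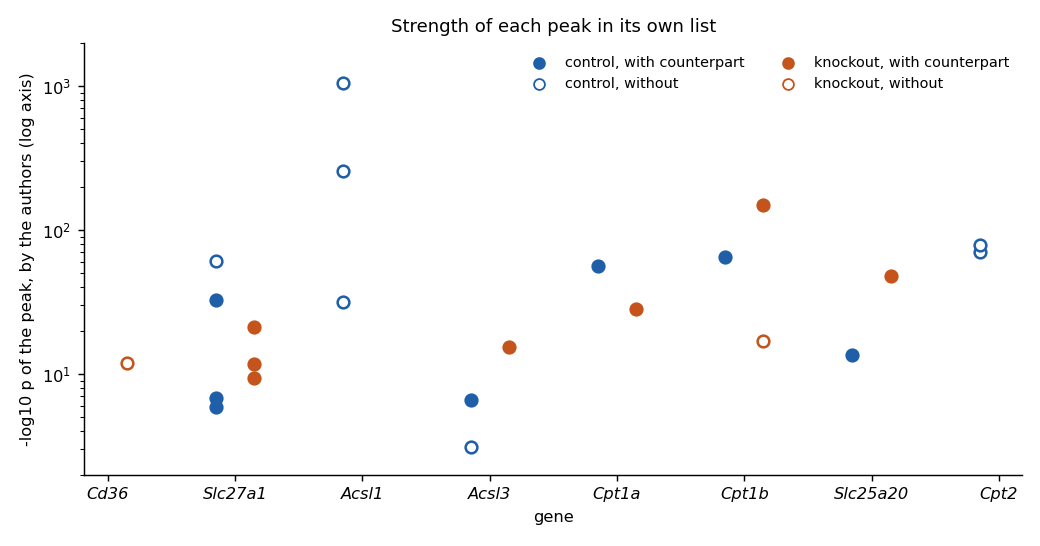
Strength of each peak within its own list, as -log10 of the authors' p (y axis, log scale), by gene (x axis), for control (blue) and knockout (orange) peaks. Filled points have a counterpart in the other list and open points have none. The highest open point, of Acsl1, stands for a log10 p of -1050, and the open points of Cpt2 for -70.2 and -78.9.

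Over all 10 genes, 7 of 14 control peaks (50%, exact 95% interval 23.0 to 77.0) had no knockout counterpart, against 23.9% of all control peaks. Of strong control peaks the count was 6 of 10 (60%, 26.2 to 87.8), against 8.72% of all strong control peaks. In the knockout list, 2 of 9 peaks (22.2%, 2.81 to 60.0) had no control counterpart, against 24.5% of all, and 2 of 8 strong peaks (25%, 3.19 to 65.1), against 4.04%. The genes were chosen with these calls known, so the shares describe them and nothing is read from their distance to the background. The intervals cover counting error only and treat peaks of the same gene as independent. In the control list the strong peak just inside the bound was that of Slc25a20 (log10 q -12.5), and the first peak outside it was the third of Slc27a1 (-5.89). In the knockout list the peaks just inside and just outside the bound were both of Slc27a1, at -10.7 and -8.29, and the next inside was that of Cd36 at -10.9.

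**Figure D4:**
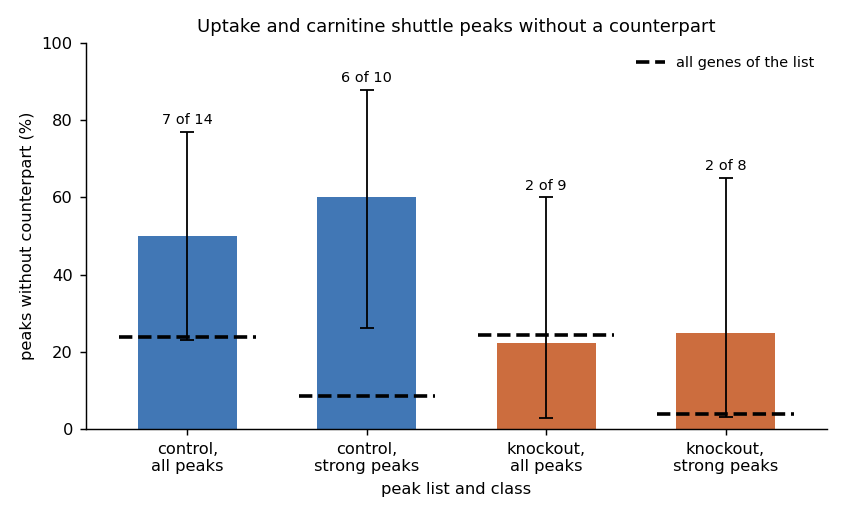
Percentage of peaks of these genes without a counterpart in the other list (y axis, from 0), for all peaks and for peaks with q at or under 1e-10, by list. Bars carry exact 95% intervals for counting error and the number of peaks, and dashed lines give the share over all genes of the list (23.9%, 8.72%, 24.5% and 4.04%, from left to right).

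Counted by gene, 2 of the 7 genes with a control peak had none in the knockout list, against 11.9% of all such genes. Of the 6 with a knockout peak, 1 had none in the control list, against 13.3%. Among genes with a strong control peak, 3 of 6 (Acsl1, Cpt2 and Slc27a1) had at least 1 without counterpart, against 11.5% of all. For strong knockout peaks it was 2 of 6 (Cpt1b and Cd36), against 5.8%. Acsl1 alone held 3 of the 6 strong control peaks without counterpart. Without it the count was 3 of 7.

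The control peaks without counterpart differed among themselves in strength. The median log10 q of the 7 was -68.3, while that of the 7 control peaks with a counterpart was -12.5. Over all control peaks the order ran the other way, with -3.73 for those without and -13.3 for those with a counterpart. Of the 7 without counterpart, Acsl1 held 3 and Cpt2 held 2. The genes were chosen with these calls known, so nothing is read from this contrast. Of the 4973 control peaks without counterpart, only 4 had a log10 p as small as the first Acsl1 peak, and 15 as small as the second. The corresponding numbers were 62 and 78 for the Cpt2 peaks, 96 for the last Slc27a1 peak and 246 for the third Acsl1 peak. The Acsl3 peak was weak, with 4004 of them at least as strong. In the knockout list, 136 of 5180 peaks without counterpart were as strong as that of Cpt1b and 307 as strong as that of Cd36.

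Few genes shared the pattern of Acsl1, taken as at least 3 control peaks, at least 2 of them strong, and no knockout peak. The rule was written from the calls of Acsl1 itself, so the count describes the lists and supports no test. Of 1278 genes with control peaks only, 54 had at least 3 peaks, and 6 met the whole rule, Acsl1 among them. Of 1448 genes with knockout peaks only, 24 had at least 3 peaks. By summed log10 p, Acsl1 led with -1340. It was followed by Slc20a2, a phosphate transporter gene (3 peaks, -121), Fam210a (6 peaks, -119), Ppp1r3a, which encodes a glycogen-targeting subunit of protein phosphatase 1 in muscle (3 peaks, -59.4), the nuclear receptor gene Esrrg (4 peaks, -54.0) and Zfp68 (4 peaks, -35.2).

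Other genes of fatty acid handling were placed in 4 lists. Over all genes, 11.9% of those with a control peak and 13.3% of those with a knockout peak had none in the other list. Of 25 further genes of uptake, activation and carnitine transfer, 11 had peaks in both lists and 12 in neither. A further 1 had only a control peak (Slc22a5, the plasma membrane carnitine transporter, log10 q -1.92) and 1 only a knockout peak (Slc27a3, log10 q -4.34). Strong control peaks without counterpart numbered 2 of 13, beside 8.72% over all genes. Both lay in genes that kept another peak, namely Crat, the carnitine acetyltransferase (chromosome 2, 30291949 to 30292787, fold 3.03, log10 q -239), and Got2 (fold 1.46, log10 q -16.1). Crat thus resembled Slc27a1, with a strong control peak without counterpart beside a shared one (control fold 3.67, knockout fold 12.2).

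Of 19 genes of malonyl-CoA metabolism and lipid stores, 15 had peaks in both lists, 2 in neither and 2 for the control alone. The control-only genes encode the triglyceride lipase ATGL (Pnpla2, fold 1.99, log10 q -14.2) and its activator CGI-58 (Abhd5, 2 peaks, the stronger with a fold of 5.92 and a log10 q of -14). Strong control peaks without counterpart numbered 5 of 21 in this list, beside 8.72% over all genes. Beside those of Pnpla2 and Abhd5, they lay in the acetyl-CoA carboxylase genes Acaca (log10 q -10.3) and Acacb (-28.6), whose product malonyl-CoA inhibits CPT1, and in Mlycd (-21.7), which degrades it. A strong knockout peak of Acot13 (log10 q -23.2) had no control counterpart. The single control peak of Acot13 (log10 q -4.84) lay elsewhere, so its peaks in both lists did not overlap.

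Of the 15 genes of beta-oxidation, 10 had peaks in both lists, 4 in neither and 1, Hadh (fold 1.88, log10 q -12.9), in the knockout list only. Eci2, among the 10, had a weak peak in each list (control log10 q -2.22, knockout -4.4), and they did not overlap. Strong control peaks without counterpart numbered 1 of 8, in Acadm, the medium-chain acyl-CoA dehydrogenase (fold 1.91, log10 q -51.6). A strong knockout peak of Etfb (log10 q -10.4) also lacked a counterpart. Of the 9 transcriptional regulators, 8 had peaks in both lists and Esrrg had control peaks alone. Their strong control peaks without counterpart numbered 7 of 15, with 2 each in Esrrg, Ppara and Ppargc1a and 1 in Ppargc1b. The only knockout peak of Ppargc1a was weak (log10 q -1.58) and overlapped none of its control peaks. Over the 4 lists together, 15 of 57 strong control peaks and 3 of 49 strong knockout peaks had no counterpart, beside 8.72% and 4.04% over all genes. Of these 15, 7 were those of the regulators. The lists were written with earlier results of these data known, so nothing is read from this contrast.

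**Figure D5:**
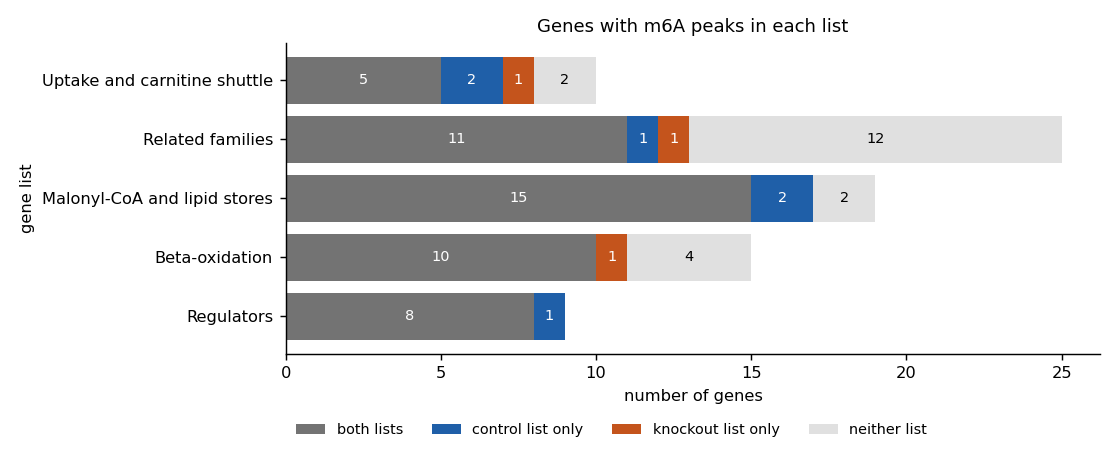
Number of genes (x axis) with m6A peaks in both lists, only in that of the control, only in that of the knockout, or in neither, for the 10 uptake and carnitine shuttle genes and the 4 further lists. The 10 genes divide into 5, 2, 1 and 2, and the lipid store list of 19 genes into 15, 2, 0 and 2. Genes with peaks in both lists need not have overlapping peaks.

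Cell type markers and the targeted gene were looked at in the same lists. All 10 cardiomyocyte markers (such as Myh6, Tnnt2 and Actc1) had peaks in both lists, as did 6 of 6 endothelial and 5 of 6 fibroblast markers. Of the adipocyte markers, Plin1, Cidec, Lep and Ucp1 had no peak in either list, and Adipoq had a weak one in the knockout list only. Cidea, the sixth of them, had 2 peaks in each list, all with counterparts, the strongest at log10 q -22 in the control and -46.5 in the knockout. Of strong control peaks, 11 of 34 in cardiomyocyte markers, 0 of 6 in endothelial and 0 of 6 in fibroblast markers had no knockout counterpart, beside 8.72% over all genes. The 11 lay in 3 of the 10 cardiomyocyte markers, 6 in Ttn, 4 in Ryr2 and 1 in Pln, and Myh6, Tnnt2 and Actc1 had none. Of strong knockout peaks, 2 of 25, 3 of 10 and 3 of 11 had no control counterpart, in the same order, beside 4.04% over all genes. Smooth muscle and pericyte markers had 0 of 4 strong control and 1 of 7 strong knockout peaks without counterpart. For adipocyte, macrophage and erythroid markers the strong control peaks without counterpart were 0 of 1 each. Their strong knockout peaks without counterpart were 0 of 2, 0 of 1 and 0 of 1, too few to compare. No peak in either list was called for 3 of 5 macrophage and 3 of 4 erythroid markers. The macrophage marker Cd163 had only a weak knockout peak (log10 q -2.37). The part of these marker peaks in the values of Acsl1, Cpt2, Slc27a1 and Cd36 was not tested. Wtap itself had 3 control and 4 knockout peaks, which do not check the deletion, since a fold is no transcript level.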

How the data were processed

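Peaks of m6A were compared between 1 pooled control and 1 pooled knockout IP and input pair. Per the series' design text, the authors ran exomePeak 2.16.0 on an IP and its input, with 0.05 as the limit on q. GRCm39, HOMER 4.9.1, BWA 0.7.12 and fastp 0.19.11 are listed in the submitters' processing notes, without roles. Each deposited list gives exonic blocks, strand and gene, with no read counts. The deposited p-value, the log10 p and log10 q (each treated as a score because minus infinity occurs) and the fold (a linear ratio) are the authors' own.

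Members were matched by the deposited gene name, and each name with a peak had a single Ensembl ID. Overlaps were computed in pandas 2.3.3, numpy 2.4.6 and scipy 1.17.1 under Python 3.11.15, by code tested on simulated data. Figures used matplotlib 3.10.9. Strong means q at or under 1e-10. Shares have exact (Clopper-Pearson) 95% intervals. The genes, lists, the bound for strong peaks and the rule for named genes (every member and Wtap; further pathway genes with peaks in 1 list only or with a strong peak without counterpart; the pattern of Acsl1) were chosen with earlier results of these data known. All further symbols of the lists were found in the RefSeq table of GRCm38.p6, whose coordinates were not used. Peak sequences were not analysed here.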

Additional observations from a re-analysis of the deposited data

How the results depend on the processing

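With 1 pooled pair of libraries per genotype no replicate could be left out, and depth limits the lists in ways they do not record. With a fold of at least 4 in both lists, 3 control peaks of these genes had no counterpart in place of 7, and 1 knockout peak in place of 2. Among strong peaks it was 3 control peaks in place of 6 and 1 knockout peak in place of 2. This setting kept only 6 of the 14 control and 4 of the 9 knockout peaks, and it also removed counterparts. The control peak of Cpt1a (fold 4.84) lost its knockout partner (3.58). The knockout peak of Slc25a20 (fold 16.9) lost its control partner (2.42) and was the 1 left, since those of Cpt1b and Cd36 fell below the bound. With strong set at q at or under 1e-20, 0 of 3 strong knockout peaks lacked a counterpart, since the peaks of Cpt1b and Cd36 no longer counted as strong. At a fold of at least 4, the genes with control peaks only were 3 of 6, as Cpt1a joined Acsl1 and Cpt2. Under the other alternatives the 4 peak counts, and the 2 genes with control peaks only, stayed within 1.5 times of the values reported. These were q at or under 0.01 and 0.001, a fold of at least 2, overlap of at least 50% of the shorter peak or of each peak, whole spans, spans within 200 bases, overlap without strand, merged peaks, 15574 peaks from each list and strong at q at or under 1e-05. Other counts, such as those of the further gene lists, the markers, the genes like Acsl1, the genes with knockout peaks only and the most 3' peaks, were not run under alternatives. Over the 13 alternatives the share of strong control peaks without counterpart ranged from 46.2% to 66.7%, while that over all genes ranged from 6.27% to 21.2%. The genes were chosen with these calls known and the settings reuse largely the same peaks, so nothing is read from the gap between these ranges.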

Other observations

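Lpl, Fabp4, Fabp5 and Slc27a4, which work beside the uptake and carnitine shuttle genes, had overlapping peaks in both lists, and Acsl5 did not. All 5 were chosen after their values were seen. Crat, Got2, Gpihbp1, Vldlr, Cpt1c and Slc27a6 of the same gene list also had overlapping peaks. Over all genes, only 23.9% of control and 24.5% of knockout peaks had no counterpart, so overlap was common and nothing is read from it. Lpl, which encodes the lipase that frees fatty acids from circulating lipoproteins, had overlapping peaks with a control fold of 7.59 and a knockout fold of 11.5, and a further weak knockout peak. The adipocyte and endothelial fatty acid binding protein gene Fabp4 had 2 shared peaks, with control folds of 1.76 and 2.07 and knockout folds of 1.89 and 5.18. Fabp5 had a shared peak with folds of 5.94 and 11.3. The 3 control peaks of the transporter gene Slc27a4 all overlapped knockout peaks. The most 5' pair had a control fold of 10.7 and a knockout fold of 32.8. In the remaining pairs the control fold was the higher, at 3.98 against 3.2 and 3.24 against 2.15. Acsl5 had a weak peak in each list, with a control log10 q of -2.21 and a knockout log10 q of -3.73, and they did not overlap.

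Position along the gene was also looked at after the data were seen. In 3 of the 10 genes a list held both shared and single-list peaks, and in all 3 the most 3' peak was a single-list one. These were the control peaks of Slc27a1 and Acsl3 and the knockout peaks of Cpt1b. Over all genes with both kinds of peak, the most 3' peak was a single-list one in 50.1% of 2146 genes of the control list and 30.8% of 2496 genes of the knockout list.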
